A study of Mus musculus with 4 samples.

Results

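Chemokine ligands were examined in RNA sequencing of subcutaneous white adipose tissue from C57BL/6 mice aged 8 weeks. They were taken by symbol, as every row of the deposited table named Ccl or Cxcl followed by a number and at most 1 letter, plus Cx3cl1 and Xcl1. This gave 45 of 51912 rows and 39 symbols. Mice received BML-260, known as an inhibitor of the dual-specificity phosphatase DUSP22, or dimethyl sulfoxide (DMSO), the vehicle. Each treatment had 2 libraries, A and B. The series counts 8 mice, 4 per treatment, and neither their assignment to the 4 libraries nor the dose, route and duration of treatment is stated in the labels. The p-values below therefore cover the spread among these 4 libraries alone, which may be technical. Paired values are given for library A and then library B.

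Chemokines are small secreted proteins that bind G protein-coupled receptors on leukocytes and direct their migration. Homeostatic ligands such as Ccl19, Ccl21 and Cxcl13 are made by the stroma of lymphoid organs and place T cells, B cells and dendritic cells there, while Cxcl12 is made by many stromal tissues. Inflammatory ligands are induced in macrophages, fibroblasts, endothelium and adipocytes, and in obese adipose tissue Ccl2 is known for drawing monocytes in through Ccr2.

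Libraries held 19999836 (BML-260 A), 23726781 (BML-260 B), 20407836 (vehicle A) and 23032466 (vehicle B) expected counts, of which the ligands made up 0.104%, 0.0596%, 0.0695% and 0.0744% in the same order. Mature adipocyte markers summed to 24970.0 and 36680.8 CPM (counts scaled to library size with edgeR's TMM factors) in the BML-260 libraries, against 42324.5 and 42920.6 CPM in the vehicle libraries, so the labelled tissue carried its defining transcripts. BML-260 A stood apart in lymphocyte and lymph node transcripts. Its 10 B cell markers summed to 211.6 CPM, against 3.64 CPM in BML-260 B and 1.95 and 2.85 CPM in the vehicle libraries, and 3 of the 10 had enough reads for a test. Of 14 T and NK cell markers, 13 were tested, and all 13 had their highest level in BML-260 A (29.7% of all tested genes). For Klrb1c and Nkg7 in that list, BML-260 A was close to another library. Klrb1c was at 2.5 and 2.14 CPM with BML-260 and at 2.28 and 2.46 CPM with vehicle. Nkg7 was at 5.54 and 3.46 CPM with BML-260 and at 2.28 and 4.24 CPM with vehicle. Lymph node stroma and high endothelial venule markers summed to 51.3 CPM in BML-260 A, against 17.4 CPM in BML-260 B and 16.8 and 23.6 CPM in the vehicle libraries. Glycam1, a mucin of high endothelial venules, lay at 8.23 CPM and Chst4, a sulfotransferase of the same vessels, at 0.77 CPM in BML-260 A, and neither had a read in BML-260 B or in the vehicle libraries. Of the 9 markers of that list, 7 were highest in BML-260 A, whereas Madcam1 was highest in vehicle B (0.389 CPM) and Il7 in vehicle A (2.61 CPM), and Pdpn and Bst1, at 21.9 and 16 CPM in BML-260 A, made up most of the sum. Skeletal muscle markers summed to 28470.7 and 44216.1 CPM in the BML-260 libraries and to 374.9 and 10205.0 CPM in the vehicle libraries. The part of lymphoid or muscle tissue in the ligand values was not tested. In bulk tissue, fewer cells of a type and less RNA per cell cannot be told apart.

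Promoters of ligand genes are textbook targets of NF-kB and of interferon-activated factors, so the sites that match these factors' motifs are shown first. RefSeq windows on GRCm38.p6, from 250 bases before to 50 bases after a gene's start, matched 27 of the 39 symbols (33 windows). Both strands were searched for the kappaB motif GGGA-NN-TTCC, in which N is any base. Looser forms of the motif were not searched, so other kappaB sites may be missed. The form searched was present in 5 of the 33 ligand windows (15.2%) and in 1.47% of all 32851 windows. The ligands were Ccl1 (chr11:82179989-82180018, minus strand), Cxcl1 (chr5:90891164-90891193, plus strand), Cxcl10 (chr5:92349029-92349058, minus strand), Cxcl2 (chr5:90903792-90903821, plus strand) and Cxcl3 (chr5:90786018-90786047, plus strand). Each site is given 5′ to 3′ in the direction of its gene, with the motif in capitals.
Ccl1: tctgcacttgGGGAAGTTCCcaaggccact
Cxcl1: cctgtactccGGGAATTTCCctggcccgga
Cxcl10: agaggggagaGGGAAATTCCaagttcatgg
Cxcl2: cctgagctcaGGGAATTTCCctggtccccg
Cxcl3: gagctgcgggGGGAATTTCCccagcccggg

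In Cxcl1, Cxcl2 and Cxcl3, which encode neutrophil attractants in 1 cluster on chromosome 5, the capitals are the same 10 bases. They begin 71, 97 and 73 bases before the start of Cxcl1, Cxcl2 and Cxcl3. In these 3 genes and in Ccl1 the motif matched on both strands, shifted by 1 base. Of the 5 genes, Cxcl1 and Cxcl10 had enough reads for the test.

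Cxcl10, an interferon-induced ligand of Cxcr3, and Ccl19, a ligand of Ccr7, shared an interferon-response motif. This motif, GAAA-NN-GAAA, was present in 3 of the 33 ligand windows (9.09%: Ccl19, Cxcl10 and Cxcl14) and in 3.44% of all windows. Both genes carried it with the same 10 letters, 213 bases before the start of Cxcl10 and 208 bases before that of Ccl19. The 250 bases before each start are given 5′ to 3′ for Cxcl10 (chr5:92348890-92349139, minus strand) and Ccl19 (chr4:42756366-42756615, minus strand). Capitals mark the interferon-response motif in both, and in Cxcl10 also the kappaB motif, at 159 bases, and an AP-1 motif, TGANTCA, at 74 bases before the start.
Cxcl10: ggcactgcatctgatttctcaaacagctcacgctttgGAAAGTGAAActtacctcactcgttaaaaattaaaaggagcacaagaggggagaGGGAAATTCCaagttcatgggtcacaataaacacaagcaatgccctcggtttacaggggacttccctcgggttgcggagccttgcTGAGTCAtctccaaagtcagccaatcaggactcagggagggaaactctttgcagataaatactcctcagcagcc
Ccl19: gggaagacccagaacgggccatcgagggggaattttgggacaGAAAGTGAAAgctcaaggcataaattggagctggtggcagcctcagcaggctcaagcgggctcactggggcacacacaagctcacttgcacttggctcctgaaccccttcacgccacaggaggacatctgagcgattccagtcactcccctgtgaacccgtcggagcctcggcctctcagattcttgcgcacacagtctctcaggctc

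The AP-1 motif was present in 7 of the 33 ligand windows (21.2%) and in 7.81% of all windows. A TATAAA motif was present in 10 ligand windows (30.3%) and in 13.6% of all, and the cAMP-response motif TGACGTCA in none of the ligand windows and in 1.79% of all. These matches describe letters and were not tested as sites. Promoters of Ccl2, Ccl4, Ccl5, Ccl7, Ccl11, Ccl21c, Ccl24, Ccl26, Cxcl5, Cxcl11, Cxcl16 and Cxcl17 were not analysed here.

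Chemokine transcripts were led by the same 3 ligands in all 4 libraries. On the deposited FPKM scale, which is per length, Ccl6 came first, with 467.6 and 221.3 FPKM in the BML-260 libraries and 270.3 and 301.5 FPKM in the vehicle libraries. Ccl8 followed, with 262.7 and 173.0 FPKM in the BML-260 libraries and 242.7 and 219.9 FPKM in the vehicle libraries. Ccl9 came next by its mean, with 133.1 and 58.0 FPKM in the BML-260 libraries and 56.3 and 64.2 FPKM in the vehicle libraries. These 3 inflammatory CC ligands together held 62.3% and 63.9% of all ligand FPKM in the BML-260 libraries and 65.3% and 65.4% in the vehicle libraries. Cxcl12 followed at 56.9 and 55.3 FPKM in the BML-260 libraries and 54.8 and 53.8 FPKM in the vehicle libraries, below Ccl9 in each library. In BML-260 A alone, Ccl21a (101.1 FPKM) and Ccl5 (81.4 FPKM) stood above Cxcl12. Cxcl11, Cxcl1 and Ccl28 were the tested ligands with the lowest mean FPKM, at most 1.77 FPKM in any library.

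The comparison of BML-260 with vehicle asks which genes changed with the compound. In 27 of the 45 rows the reads sufficed for edgeR's quasi-likelihood test, and none of these passed an adjusted p of 0.05. Over the 15643 genes tested, 0.00639% (1 gene) passed as higher and 0.0% as lower. At an unadjusted p under 0.05, edgeR gave 1 ligand higher (Ccl2) and 1 lower (Cxcl9), against 7.45% and 3.61% of all tested genes. DESeq2 called 1 ligand, Ccl2, as higher at an adjusted p of 0.05, and none as lower, where it called 2.09% of all tested genes higher and 0.499% lower. With limma-voom no ligand passed, and 0.00639% of genes passed as higher and 0.0% as lower. An edgeR fit without a low-count filter called Ccl2 higher and no ligand lower, with 2.31% and 0.351% of its 24481 genes. The authors' deposited table also called Ccl2, with a log2 fold change of 1.26 and an adjusted p of 0.00879, and no other ligand. It called 0.555% of all rows higher and 0.133% lower. That deposited log2 fold change is not a plain ratio of the deposited means. The log2 ratio of the mean FPKM of Ccl2 was 2.30, with 0.1 added to each mean.

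Fitted log2 fold changes were above zero for 16 of the 27 ligands, with a median of 0.11 (all genes 0.02, with 8214 of 15643 above zero). When BML-260 A was left out, 11 of 27 lay above zero and the median was -0.34. In 3 ligands (Ccl2, Ccl7 and Ccl25) both BML-260 libraries lay above both vehicle libraries, and in 4 (Cxcl9, Cx3cl1, Xcl1 and Ccl27a) both lay below, against 22.9% and 21.5% of all tested genes.

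Many ligand levels also differed between libraries of the same treatment. BML-260 A held the highest level of 13 ligands (29.7% of all tested genes were highest there). It lay more than 2-fold above BML-260 B in 12 of the 27 ligands, against 6.5% of all tested genes. BML-260 B held the lowest level of 10 ligands (20.3% of all tested genes). The vehicle libraries were more than 2-fold apart in 4 ligands, against 7.1% of all tested genes. The median absolute log2 difference between A and B was 0.74 for ligands with BML-260 (all tested genes 0.23) and 0.34 with vehicle (all tested genes 0.17).

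**Figure D1:**
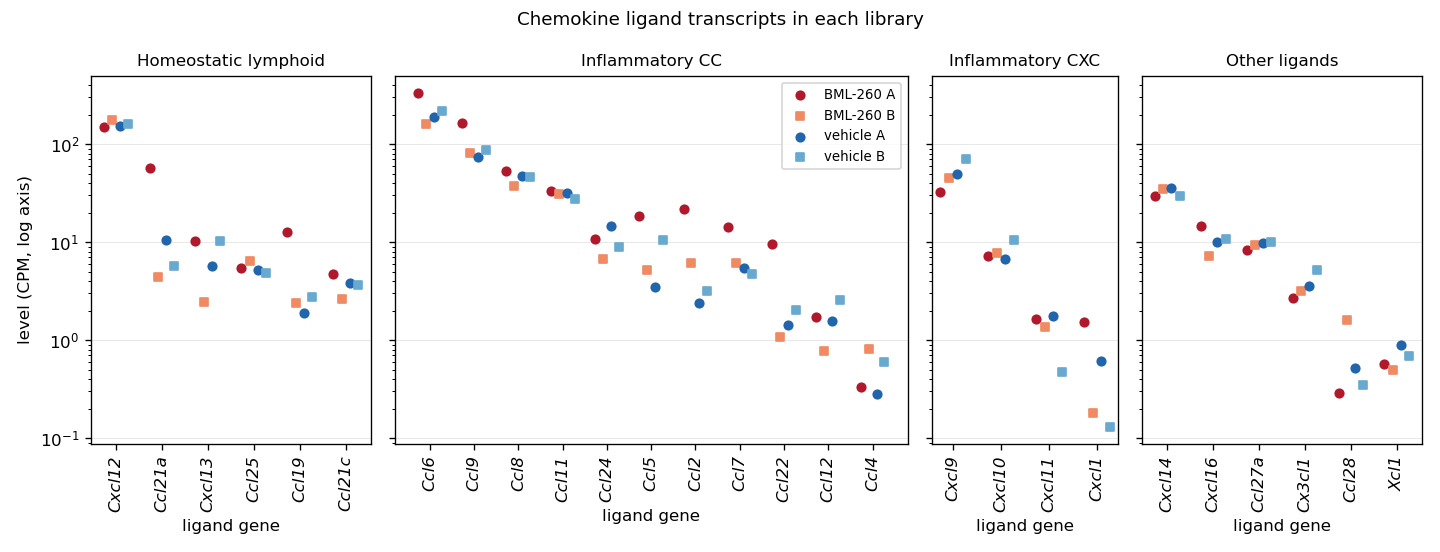
Level of each of the 27 tested chemokine ligands in TMM-scaled CPM (log axis), 1 point per library, with BML-260 A and B left of vehicle A and B and ligands grouped by class. BML-260 A (dark red) is the highest point for 13 ligands, among them Ccl21a at 56.7 CPM, while Cxcl12, Ccl11 and Cxcl14 lie close together in all 4 libraries.

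Homeostatic lymphoid ligands had 11 rows, of which 6 were tested, with a median log2 fold change of 0.15 and 4 above zero. Summed over the 11 rows they reached 239.3 and 194.5 CPM in the BML-260 libraries and 180.9 and 188.6 CPM in the vehicle libraries. Most of that sum was Cxcl12, while Ccl21a and Ccl19, the ligands of Ccr7, were high in BML-260 A.

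Ccl21a (ENSMUSG00000094686, chromosome 4, 42772860 to 42773993 on GRCm38, minus strand) guides naive T cells and dendritic cells into lymph nodes through Ccr7. It was at 56.7 and 4.37 CPM in the BML-260 libraries (1177 and 96 reads) and at 10.6 and 5.75 CPM in the vehicle libraries (224 and 133 reads). BML-260 A was above both vehicle libraries and BML-260 B below both, 13.0-fold apart. The means were 30.5 ± 37.0 CPM with BML-260 and 8.19 ± 3.45 CPM with vehicle (SD, n = 2 each). Its log2 fold change was 1.90 (SE 1.1; adjusted p = 0.573 with edgeR), and -0.92 without BML-260 A.

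Ccl19 (ENSMUSG00000071005, chromosome 4, 42754525 to 42756577, minus strand), the other ligand of Ccr7 and a neighbour of Ccl21a, was at 12.8 and 2.37 CPM in the BML-260 libraries and at 1.9 and 2.77 CPM in the vehicle libraries. Only BML-260 A was high, with 265 reads against 40 to 64 reads in the other 3 libraries. Its log2 fold change was 1.69 (SE 0.79; adjusted p = 0.497 with edgeR), and 0.01 without BML-260 A.

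Ccl21 genes are near-identical copies, and their counts are uncertain for that reason. The GENCODE vM21 transcripts of Ccl21a and of Ccl21b on chromosome 4 differed at 2 of 402 aligned bases (99.5% identity). This alignment was local, so bases outside it were not compared. The row named Ccl21c was not aligned. The 3 rows named Ccl21b had no read, as did a second Ccl21a row and a second Ccl19 row on unplaced scaffolds. The row named Ccl21c (ENSMUSG00000096271) lies on the scaffold GL456350.1, where GENCODE vM21 names the same identifier Ccl21b. It was at 4.77 and 2.64 CPM in the BML-260 libraries and at 3.84 and 3.67 CPM in the vehicle libraries, with overlapping groups and a log2 fold change of -0.02 (95% confidence interval -0.94 to 0.90).

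The Ccl21a row had 11.9 and 1.65 times the CPM of the Ccl21c row in the BML-260 libraries, against 2.74 and 1.56 times in the vehicle libraries. Their sum was 61.5 and 7.01 CPM in the BML-260 libraries and 14.4 and 9.42 CPM in the vehicle libraries, with the libraries in the same order as for Ccl21a alone. In mice, different copies serve lymphoid stroma and peripheral lymphatic vessels. Of the lymphatic endothelial markers, Lyve1 was at 83.5 and 42.0 CPM in the BML-260 libraries and 55.2 and 89.2 CPM in the vehicle libraries, and Prox1 at 1.06 and 1.18 CPM and 0.807 and 0.821 CPM in the same order.

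Cxcl13, which draws B cells to follicles through Cxcr5, was at 10.3 and 2.46 CPM in the BML-260 libraries and at 5.65 and 10.3 CPM in the vehicle libraries. Here BML-260 A was no higher than vehicle B, and BML-260 B was the low library. Its log2 fold change was -0.33 (SE 0.69), and it ranged between -1.71 and 0.35 when single libraries were left out, lowest without BML-260 A.

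Cxcl12, the ligand of Cxcr4 and of the scavenging receptor Ackr3, was at 149.3 and 176.2 CPM in the BML-260 libraries and at 153.6 and 161.3 CPM in the vehicle libraries. The groups overlapped in CPM, while in the FPKM values above both BML-260 libraries were slightly higher than the vehicle ones. The log2 fold change was 0.05 with a 95% confidence interval of -0.32 to 0.41. Ccl25, the ligand of Ccr9 in thymus and gut, was at 5.49 and 6.38 CPM in the BML-260 libraries and at 5.22 and 4.8 CPM in the vehicle libraries. These groups did not overlap in CPM, with a log2 fold change of 0.24 (SE 0.24), for which edgeR gave an adjusted p of 0.73, but on the deposited FPKM scale they did, at 4.92 and 5.39 FPKM in the BML-260 libraries and 6.5 and 4.13 FPKM in the vehicle libraries.

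Inflammatory CC ligands had 16 rows, of which 11 were tested. The median log2 fold change was 0.37 and 8 lay above zero. Together they summed to 661.7 and 338.7 CPM in the BML-260 libraries and to 373.1 and 414.1 CPM in the vehicle libraries, so the BML-260 libraries fell on either side of the vehicle ones. In 8 of the 11, BML-260 A was the highest library, and in 7 it was more than 2-fold above BML-260 B.

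Ccl2 (ENSMUSG00000035385, chromosome 11, 82035571 to 82037453, plus strand), the monocyte attractant, was at 21.6 and 6.1 CPM in the BML-260 libraries (449 and 134 reads) and at 2.42 and 3.2 CPM in the vehicle libraries (51 and 74 reads). Both BML-260 libraries lay above both vehicle libraries, and they were 3.54-fold apart. The means were 13.9 ± 11 CPM with BML-260 and 2.81 ± 0.55 CPM with vehicle (SD, n = 2 each). The fold change was 4.92 (95% confidence interval 1.63 to 14.8; log2 2.30, SE 0.63), with an edgeR adjusted p of 0.359 and a DESeq2 adjusted p of 0.0105. Without BML-260 A the log2 fold change was 1.102 (edgeR adjusted p = 0.512).

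Ccl7, next to Ccl2 on chromosome 11 (82045712 to 82047525) and also a ligand of Ccr2, was at 14.4 and 6.1 CPM in the BML-260 libraries and at 5.41 and 4.71 CPM in the vehicle libraries. The groups did not overlap, though BML-260 B was only 1.21-fold above the vehicle mean. Its log2 fold change was 1.02 (SE 0.44; adjusted p = 0.472 with edgeR), and 0.26 without BML-260 A. Further along the same cluster, Ccl11, an eosinophil attractant, was at 33.6 and 30.7 CPM in the BML-260 libraries and at 31.9 and 27.7 CPM in the vehicle libraries, a log2 fold change of 0.11 (95% confidence interval -0.23 to 0.45).

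In the next genes along the cluster the groups overlapped. Ccl12, a mouse ligand of Ccr2, was at 1.73 and 0.774 CPM in the BML-260 libraries and at 1.57 and 2.55 CPM in the vehicle libraries, with a log2 fold change of -0.72 (SE 0.52), or -1.42 when BML-260 A was left out and -0.25 when BML-260 B was. Ccl8, a ligand of Ccr8 in mice, was at 53.2 and 37.4 CPM in the BML-260 libraries and at 47.3 and 46.6 CPM in the vehicle libraries, with a log2 fold change of -0.05 (SE 0.19). Thus 5 tandem genes within chr11:82035571-82116799 had fitted values from -0.72 to 2.30, and the groups overlapped in Ccl11 as well.

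The second CC cluster (chr11:83525778-83664683) holds Ccl5, Ccl9, Ccl6, Ccl3 and Ccl4. Ccl5, made by T cells and NK cells, was at 18.3 and 5.24 CPM in the BML-260 libraries and at 3.51 and 10.5 CPM in the vehicle libraries. The groups overlapped, with 3.48-fold between the BML-260 libraries and 2.99-fold between the vehicle ones, and the log2 fold change was 0.74 (SE 0.74), or -0.44 without BML-260 A. T and NK cell markers summed to 185.0 and 21.5 CPM in the BML-260 libraries and to 14.0 and 32.2 CPM in the vehicle libraries, and their part in Ccl5 was not tested.

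Ccl9, a rodent ligand of Ccr1 made by myeloid cells, was at 163.4 and 81.7 CPM in the BML-260 libraries and at 73.9 and 87.5 CPM in the vehicle libraries. Ccl6, also a rodent ligand of Ccr1, was at 333.8 and 161.8 CPM in the BML-260 libraries and at 190.4 and 219.3 CPM in the vehicle libraries. In both, BML-260 A was the high library and BML-260 B lay among the vehicle values or below them. The log2 fold change was 0.60 (SE 0.33) for Ccl9 and 0.27 (SE 0.35) for Ccl6, and without BML-260 A the values were 0.00 and -0.36. Macrophage and monocyte markers were highest in BML-260 A in 8 of 12 cases (29.7% of all tested genes). The exceptions, C1qa, C1qb, C1qc and Cd163, were highest in vehicle B. Cd163 was at 99.5 and 76.1 CPM with BML-260 and at 120.3 and 142.4 CPM with vehicle, without overlap. Lyz2 was the largest member of the list, at 1018.6 and 424.8 CPM with BML-260 and at 646.3 and 703.1 CPM with vehicle. The 12 markers summed to 2924.1 and 1511.1 CPM in the BML-260 libraries and to 1982.3 and 2305.0 CPM in the vehicle libraries. Their part in these values was not tested.

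Ccl4, a macrophage inflammatory protein, was at 0.337 and 0.82 CPM in the BML-260 libraries and at 0.285 and 0.605 CPM in the vehicle libraries, from 6 to 18 reads per library. Ccl3, its neighbour, had too few reads for the test, with 16 and 7 in the BML-260 libraries and 6 and 2 in the vehicle libraries. At this depth the exact 95% Poisson interval of the 2 reads in vehicle B was 0.242 to 7.22 reads, and such intervals cover counting error only.

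Ccl22, a dendritic cell and macrophage ligand of Ccr4, was at 9.68 and 1.09 CPM in the BML-260 libraries and at 1.42 and 2.03 CPM in the vehicle libraries. BML-260 A was the highest and BML-260 B the lowest library, 8.85-fold apart, and the log2 fold change was 1.63 (SE 0.97), or -0.67 without BML-260 A. Dendritic cell markers summed to 58.5 and 38.4 CPM in the BML-260 libraries and to 47.5 and 49.5 CPM in the vehicle libraries. Of these 8 markers, 6 were highest in BML-260 A (29.7% of all tested genes), whereas Clec9a was highest in vehicle B (5.62 CPM). Zbtb46, the largest member of the sum, was at 15.7 and 19.3 CPM with BML-260 and at 24.5 and 21.7 CPM with vehicle. Their part in Ccl22 was not tested. Ccl17, the other ligand of Ccr4, had 5 and 1 reads in the BML-260 libraries and 0 and 3 reads in the vehicle libraries.

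Ccl24, an eosinophil attractant like Ccl11, was at 10.7 and 6.65 CPM in the BML-260 libraries and at 14.7 and 8.99 CPM in the vehicle libraries. The groups overlapped, with a log2 fold change of -0.44 (SE 0.35). Of the remaining inflammatory CC ligands, Ccl1 had 4 reads, all in vehicle B, and Ccl20 and Ccl26 had none in any library. A library without reads allows up to 3 counts, which is 0.13 to 0.144 CPM.

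**Figure D2:**
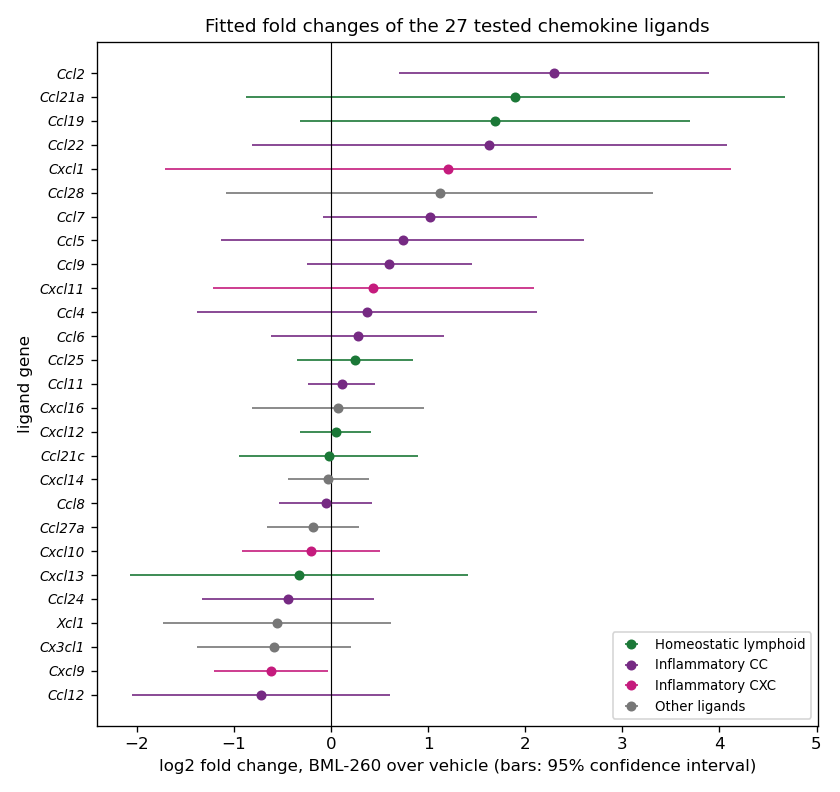
Fitted log2 fold change of BML-260 over vehicle for the 27 tested ligands (horizontal axis), with 95% confidence intervals from edgeR and colours for ligand classes. The intervals of Ccl2 (2.30) and Cxcl9 (-0.62) leave out zero before adjustment, and those of Cxcl12 and Ccl11 are the narrowest.

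Inflammatory CXC ligands had 7 rows, of which 4 were tested, with 2 above zero. The median log2 fold change was 0.12. Summed over the class they were at 44.1 and 54.8 CPM in the BML-260 libraries and at 58.9 and 81.3 CPM in the vehicle libraries, lower in both BML-260 libraries, and most of that was Cxcl9.

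Cxcl9 (ENSMUSG00000029417, chromosome 5, 92321347 to 92328079, minus strand), the interferon gamma-induced ligand of Cxcr3, was at 32.8 and 45.1 CPM in the BML-260 libraries (682 and 990 reads) and at 49.7 and 69.8 CPM in the vehicle libraries (1048 and 1616 reads). Both BML-260 libraries lay below both vehicle libraries, with a gap between BML-260 B and vehicle A that was smaller than the spread within either treatment. The means were 39.0 ± 8.67 CPM with BML-260 and 59.8 ± 14.2 CPM with vehicle (SD, n = 2 each). The fold change was 0.652 (95% confidence interval 0.433 to 0.981; unadjusted p = 0.0433), with an edgeR adjusted p of 0.44 and a DESeq2 adjusted p of 0.303.

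Cxcl10 and Cxcl11, the other ligands of Cxcr3, lie next to Cxcl9. Cxcl10, whose promoter is printed above, was at 7.17 and 7.79 CPM in the BML-260 libraries and at 6.69 and 10.5 CPM in the vehicle libraries. Its groups overlapped, with a log2 fold change of -0.20 (SE 0.28). Cxcl11, which GENCODE vM21 lists as a polymorphic pseudogene, was at 1.64 and 1.37 CPM in the BML-260 libraries and at 1.76 and 0.475 CPM in the vehicle libraries, with a log2 fold change of 0.44 (SE 0.65). Interferon gamma itself, Ifng, had 0.144 and 0.182 CPM in the BML-260 libraries and 0.237 and 0.259 CPM in the vehicle libraries, too low for the test.

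Cxcl1, a neutrophil attractant and the other tested gene with a kappaB motif shown above, was at 1.54 and 0.182 CPM in the BML-260 libraries and at 0.617 and 0.13 CPM in the vehicle libraries. These values came from 32 and 4 reads with BML-260 and 13 and 3 reads with vehicle, so that the A library was the higher one in both treatments. The log2 fold change was 1.21 with a 95% confidence interval of -1.71 to 4.12, and -1.005 without BML-260 A. Cxcl2 had 9 and 6 reads in the BML-260 libraries and 2 and 5 reads in the vehicle libraries, Cxcl5 6 and 2 reads against 0 and 2 reads, and Cxcl3 3 and 1 reads against none. Neutrophil markers summed to 12.6 and 7.65 CPM in the BML-260 libraries and to 7.36 and 10.8 CPM in the vehicle libraries. Only 3 of these 10 markers had enough reads for the test. Csf3r was the largest member of the sum, at 8.48 and 3.83 CPM with BML-260 and 3.99 and 6.7 CPM with vehicle.

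Fractalkine and lymphotactin were both lower in the BML-260 libraries without overlap in CPM. Cx3cl1, a membrane-bound ligand of Cx3cr1, was at 2.7 and 3.19 CPM in the BML-260 libraries and at 3.61 and 5.23 CPM in the vehicle libraries. Its log2 fold change was -0.59 (SE 0.31; adjusted p = 0.548 with edgeR). On the deposited FPKM scale its groups overlapped, at 0.896 and 1.28 FPKM in the BML-260 libraries and 1.22 and 1.98 FPKM in the vehicle libraries. Xcl1, the NK cell and T cell ligand of Xcr1 on cross-presenting dendritic cells, was at 0.578 and 0.501 CPM in the BML-260 libraries and at 0.902 and 0.692 CPM in the vehicle libraries, from 11 to 19 reads per library. Its log2 fold change was -0.56 (SE 0.46; adjusted p = 0.689 with edgeR).

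Epithelial, mucosal and other constitutive ligands had 9 rows, of which 4 were tested, with a median log2 fold change of 0.02. Cxcl14, which adipose and skin stroma express, was at 29.2 and 34.7 CPM in the BML-260 libraries and at 35.9 and 29.2 CPM in the vehicle libraries, a log2 fold change of -0.03 (95% confidence interval -0.44 to 0.39). Ccl27a, a skin ligand of Ccr10, was at 8.23 and 9.25 CPM in the BML-260 libraries and at 9.78 and 10.1 CPM in the vehicle libraries. Its groups did not overlap, and the log2 fold change was -0.18 (SE 0.19; adjusted p = 0.747 with edgeR).

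Cxcl16, a transmembrane ligand of Cxcr6, was at 14.5 and 7.24 CPM in the BML-260 libraries and at 9.97 and 10.7 CPM in the vehicle libraries, so that the 2 BML-260 libraries enclosed the vehicle ones. The log2 fold change was 0.07 (SE 0.35). Ccl28, a mucosal ligand of Ccr10, was at 0.289 and 1.59 CPM in the BML-260 libraries and at 0.522 and 0.346 CPM in the vehicle libraries. Here BML-260 B was the high library, with 35 reads against 6 to 11 reads in the others, and the log2 fold change was 1.12 (SE 0.87), or -0.58 without BML-260 B. Cxcl17 had 1 read, in vehicle B, the 2 further Ccl27a rows at most 1 read per library, and Cxcl15 and Ccl27b none.

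Receptors for these ligands were highest in BML-260 A in most cases. Of 18 conventional receptors, 11 were tested, none passed the adjusted threshold with edgeR or DESeq2, and all 11 had fitted values above zero (median 0.42). At an unadjusted p under 0.05, 2 were higher (Ccr7 and Ccr9; 7.45% of all tested genes), and 10 of the 11 had their highest level in BML-260 A (29.7% of all tested genes). Summed, they reached 214.1 and 74.4 CPM in the BML-260 libraries and 66.9 and 79.8 CPM in the vehicle libraries.

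Ccr7, the receptor of Ccl19 and Ccl21, was at 16 and 0.82 CPM in the BML-260 libraries and at 0.475 and 1.04 CPM in the vehicle libraries. Cxcr5, the receptor of Cxcl13, was at 8.81 and 0.273 CPM in the BML-260 libraries and at 0.0949 and 0.173 CPM in the vehicle libraries, too low in 3 libraries for the test. Both were high in BML-260 A alone, the library in which B cell markers and T and NK cell markers had their highest sums. The part of these cells in both receptors was not tested. The log2 fold change of Ccr7 was 3.46 (SE 1.36; adjusted p = 0.451 with edgeR).

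Ccr2, the receptor of Ccl2 and Ccl7, was at 92.4 and 32.4 CPM in the BML-260 libraries and at 25.9 and 31.4 CPM in the vehicle libraries. The groups did not overlap, but BML-260 B was close to the vehicle libraries. For Ccr2 the log2 fold change was 1.12 (SE 0.48; adjusted p = 0.472 with edgeR).

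Cxcr4, the receptor of Cxcl12, was at 16.8 and 4.05 CPM in the BML-260 libraries and at 3.61 and 5.19 CPM in the vehicle libraries, with overlapping groups, as for its ligand in CPM. Ccr9 was at 2.65 and 0.729 CPM in the BML-260 libraries and at 0.285 and 0.432 CPM in the vehicle libraries, a log2 fold change of 2.21 (SE 0.76), for which edgeR gave an adjusted p of 0.419. Cxcr3, the receptor of Cxcl9, was at 5.3 and 3.87 CPM in the BML-260 libraries and at 3.09 and 4.84 CPM in the vehicle libraries, with overlapping groups.

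Most atypical receptors bind chemokines without classical signalling, and some lower their local concentration. All 5 in the list were tested, 3 had fitted values above zero, and none passed the adjusted threshold with edgeR or DESeq2. Ackr3, which scavenges Cxcl12, was at 84.2 and 62.9 CPM in the BML-260 libraries and at 46.4 and 57.7 CPM in the vehicle libraries. Its groups did not overlap, and the log2 fold change was 0.50 (SE 0.19, unadjusted p = 0.0478; adjusted p = 0.448 with edgeR).

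Of 13 inducing cytokines and lymphotoxin pathway genes, 8 were tested, 7 had fitted values above zero, and none passed the adjusted threshold with edgeR or DESeq2. Ltb, the lymphotoxin subunit that lymphocytes use to induce Ccl19, Ccl21 and Cxcl13 in stroma, was at 21 and 2.05 CPM in the BML-260 libraries and at 1.33 and 3.63 CPM in the vehicle libraries. Tnfaip3, an NF-kB-induced inhibitor of that pathway, was at 17.9 and 12.2 CPM in the BML-260 libraries and at 8.64 and 10.2 CPM in the vehicle libraries, and the log2 fold change was 0.68 (SE 0.25, unadjusted p = 0.0379; adjusted p = 0.43 with edgeR). Ltb was high in BML-260 A alone, and Tnfaip3 was higher in both BML-260 libraries than in either vehicle library. Of the 8 tested, 2 (Tnf and Tnfaip3) were higher without overlap, against 22.9% of all tested genes. Groups overlapped for Relb, Nfkb2, Nfkbia and Ltbr, with log2 fold changes of 0.36, 0.47, 0.16 and -0.07. The platelet chemokine Pf4, whose symbol lies outside the rule, was at 65.4 and 44.5 CPM in the BML-260 libraries and at 44.4 and 42.7 CPM in the vehicle libraries.

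**Figure D3:**
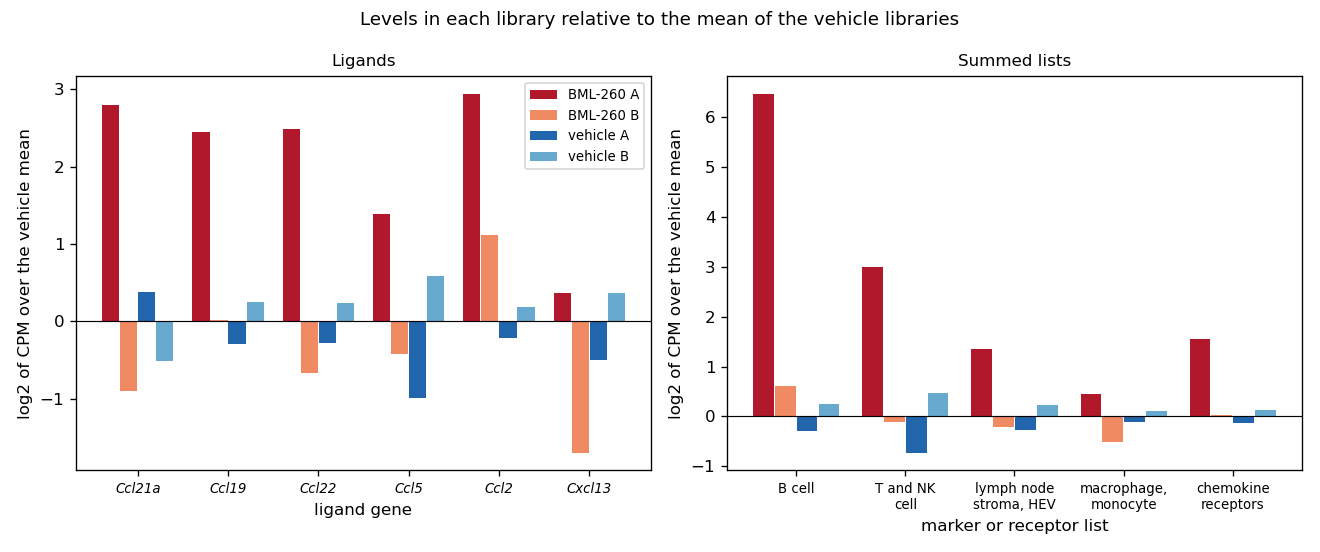
Level of 6 ligands (left) and summed level of 5 marker or receptor lists (right) in each library, as log2 of CPM over the mean of the vehicle libraries, with BML-260 A and B left of vehicle A and B. BML-260 A reaches 6.92 times the vehicle mean for Ccl21a and 7.7 times for Ccl2, whereas BML-260 B lies at 0.534 times for Ccl21a and 2.17 times for Ccl2.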

How the data were processed

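Per the labels' protocols, TRIzol was used for total RNA. One table was deposited by the authors. It gives expected counts (estimated counts, not normalized) and FPKM for each library, the authors' group means of both, those means also on a log2 scale, and the authors' own log2 fold change with its p-value and adjusted p-value. Build GRCm38.p5 and the tools RSEM 1.2.31, HISAT2 2.1.0 and DESeq2 1.10.1 stand in the submitters' processing notes with no role given. Neither annotation nor strand setting is stated there. The expected counts were rounded. Genes passing filterByExpr (15643) were fitted with edgeR 4.0.16 (quasi-likelihood, TMM, group only, R 4.3.3), two-sided, with Benjamini-Hochberg adjustment over all of them, leaving 2 residual and 3.28 prior degrees of freedom and a biological coefficient of variation of 23%. Alternatives were DESeq2 1.42.0, limma-voom 3.58.1, other scalings, filters and pseudocounts, the library letter as a block, and leaving out each library. Gene identifiers matched the GENCODE vM21 primary assembly in 51719 cases and not in 193. The members and the lists of ligands, receptors and markers were chosen with earlier results of these data known. All ligands are accounted for, each tested one with its value in every library, and values are given for 7 receptors of the ligands described, while 1 more is not reported here. Standard errors are the log2 fold change over the square root of F.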

Additional observations from a re-analysis of the deposited data

How the results depend on the processing

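Over all genes, edgeR called 1, DESeq2 405 (327 higher, 78 lower), a fit without a low-count filter 651 (565 higher, 86 lower), and leaving out single libraries gave 0 to 309 (0 and 309 with vehicle A or B left out, 1 and 5 with BML-260 A or B left out). Among ligands, DESeq2 and the fit without a filter each called 1, Ccl2 (adjusted p = 0.0105 and 0.00933; edgeR without single libraries 0.1 to 0.866), and every other fit 0. With the library letter as replicate block, 0 genes were called. The letters were not taken as pairs, since the labels do not state that they pair the libraries. Deviations of same-letter libraries had a correlation of -0.0593 across genes. With 2 libraries per treatment this correlation cannot decide whether the letters are pairs. Of 27 ligands, 11 kept the sign of their log2 fold change in all alternatives. Ccl25 turned to -0.042 and -0.036 on the FPKM scale with pseudocounts of 0.1 and 1, Cxcl12 to -0.011 with library totals, and Cxcl16 to -0.023 with limma-voom and -0.006 with the block. The other reversals came from leaving out single libraries, which gave ranges of -0.92 to 2.79 for Ccl21a, -0.52 to 0.34 for Ccl21c, -0.67 to 2.48 for Ccl22, -0.58 to 1.86 for Ccl28, -0.41 to 1.01 for Ccl4, -0.44 to 1.74 for Ccl5, -0.36 to 0.70 for Ccl6, -0.34 to 0.17 for Ccl8, -1.005 to 2.64 for Cxcl1, -0.52 to 0.16 for Cxcl10, -0.23 to 1.62 for Cxcl11, -0.081 to 0.149 for Cxcl12, -1.71 to 0.35 for Cxcl13, -0.17 to 0.10 for Cxcl14, -0.53 to 0.49 for Cxcl16 and -0.34 to 0.26 for the median ligand. A lone library is assumed there to vary like the other treatment. The cause was not tested. Depth limits ligands of under about 10 reads.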
